A study of Homo sapiens with 12 samples.

Results

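The 8 genes followed here encode RNA-binding proteins that recognise AU-rich elements: the 3 tristetraprolin family members ZFP36, ZFP36L1 and ZFP36L2, and the binders ELAVL1, HNRNPD, KHSRP, TIA1 and TIAL1. They were chosen by name, with earlier results of these data known. Each was matched to its row of the deposited expression table through its Ensembl gene ID, which gave 8 of the 26058 genes listed. All 8 passed the filter on low values, and all 8 belonged to the 22067 genes tested.

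AU-rich elements are stretches rich in adenine and uracil in the 3′ untranslated regions of short-lived mRNAs, among them those of many growth factor-induced genes. ZFP36 family proteins bind them through tandem zinc fingers and recruit deadenylases, which shorten the poly(A) tail and start decay. HNRNPD and KHSRP also promote decay of such mRNAs, ELAVL1 (HuR) is known for protecting them, and TIA1 and TIAL1 (TIAR) restrain their translation. ZFP36 is itself an immediate early gene that growth factors induce in many cell types.

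RNA was sequenced from HEK293 cells, a human embryonic kidney line, that were either wild type (WT) or carried a CRISPR double knockout of PRKAA1 and PRKAA2, which encode the 2 catalytic α subunits of the energy sensor AMPK (AMPK KO). All cells were serum starved for 24 h and then given the solvent DMSO alone, DMSO followed by 30 min of epidermal growth factor (EGF), or 25 µM cordycepin followed by 30 min of EGF, for 50 min in total. The nucleoside cordycepin (3′-deoxyadenosine) resembles adenosine. The study describes its triphosphate as a chain terminator of polyadenylation. It also cites work in which cordycepin did not end pre-mRNA synthesis in general in intact cells. These 6 groups had 2 libraries each, numbered replicates 2 and 3. The labels give the EGF concentration as 15, in nM in one place and µM in another, and give the time in DMSO alone as 20 min or 50 min. Neither was resolved here. Whether the knockout line is 1 clone was not given in the sources used here, so an effect of the knockout cannot be told apart from other differences between the lines. The study refers to these libraries as biological replicates, but the labels do not say whether they came from separate cultures. The p-values therefore measure the spread between these libraries, whatever its source.

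The AU-rich sequences themselves are shown first, because they are what these proteins bind and because several of the genes carry them. In the 3′ untranslated regions of the canonical GENCODE 44 transcripts, the nonamer TTATTTATT, the core site of ZFP36 family proteins, was found in 4 of the 8 genes: ZFP36, ZFP36L1, ZFP36L2 and ELAVL1. Among all 12782 tested genes with a coding canonical transcript, 9.57% had it. Only the sense strand was searched, and each nonamer also contains the pentamer ATTTA. A match is a description of the letters and not a measured binding site. The 4 sites, and for comparison the site in FOS, an immediate early transcription factor mRNA, are printed 5′ to 3′ with the nonamer in capitals and up to 10 bases on either side.
ZFP36 (chr19:39409196-39409224, GRCh38, plus strand): tatgacgactTTATTTATTctaatatgat
ZFP36L1 (chr14:68788077-68788105, GRCh38, minus strand): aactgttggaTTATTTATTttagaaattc
ZFP36L2 (chr2:43223448-43223476, GRCh38, minus strand): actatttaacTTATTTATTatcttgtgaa
ELAVL1 (chr19:7961828-7961856, GRCh38, minus strand): atttatgtatTTATTTATTgaagtgtgaa
FOS (chr14:75282060-75282088, GRCh38, plus strand): tgtttttaatTTATTTATTaagatggatt

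The pentamer ATTTA, counted with overlaps, occurred 5 times in the 708 bases of the ZFP36 3′ untranslated region, a density of 7.06 per kb. The median over all 12782 genes was 1.69 per kb. ZFP36L1 had 8 pentamers in 1871 bases (4.28 per kb), TIA1 had 13 in 3275 (3.97 per kb), ELAVL1 had 13 in 4910 (2.65 per kb) and ZFP36L2 had 5 in 1917 (2.61 per kb). TIAL1 followed with 5 in 2200 (2.27 per kb), while HNRNPD had 2 in 1687 (1.19 per kb) and KHSRP 1 in 1922 (0.52 per kb). ZFP36 thus had the densest AU-rich 3′ end of the 8, and HNRNPD and KHSRP lay below the median of all genes. At least 5 pentamers were found in 6 of the 8, against 33.3% of all genes. Such counts, like those of the nonamer, rise with length. The median 3′ untranslated region had 1920 bases in the 8 genes and 1314 in all genes. The median density was 2.63 per kb in the 8, against 1.69 per kb.

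Expression was deposited as RPKM, read counts divided by gene length and by a library size, so levels can be compared between genes. That size was not the plain read total. In AMPK KO DMSO replicate 3 it was 16478039, below the 16916969 reads recovered on listed genes. The study names an upper quartile normalisation of its RPKM values. Recovered reads per library ran from 12669029 to 26433945, except in WT DMSO replicate 3, which held 4007040 reads and had 1170 listed genes without a read, against 3 to 127 in the others. Its group also had the lowest correlation between replicates over tested genes (0.918, against 0.961 to 0.977). PRKAA1 checked the labels. In DMSO its level was 21.9 and 15.4 RPKM in WT libraries and 7.62 and 7.37 RPKM in AMPK KO libraries. The log2 difference was -1.26 (SE 0.167, limma adjusted p 0.0228) and passed in 9 of 12 alternative fits and 6 of 12 fits without 1 library. PRKAA2 had a log2 difference of -0.73 that did not pass (adjusted p 0.112). With EGF the PRKAA1 difference was -1.12 (adjusted p 0.0236). With cordycepin and EGF it was -0.49 (interval -0.87 to -0.11, adjusted p 0.28) and that of PRKAA2 -0.12 (adjusted p 0.804), so the labels of those 4 libraries were not checked by a call. Of the HEK293 markers, LIN28B (13.2 to 25.8 RPKM), VIM (49.1 to 82.3 RPKM), KRT8 (8 to 14 RPKM) and KRT18 (11.7 to 18.5 RPKM) were present in every library, while PAX2 (0.113 to 0.851 RPKM) and NEFM (0 to 0.342 RPKM) were low. The markers of other cell types were mostly low: PTPRC of leukocytes reached at most 0.061 RPKM, ESR1 of MCF7 cells ran from 0.0664 to 0.269 RPKM, CD14 of leukocytes from 0.517 to 2.84 RPKM and COL1A1 of fibroblasts from 0.354 to 1.21 RPKM. GATA3, also listed for MCF7 cells, was present in every library (4.85 to 7.17 RPKM). In bulk libraries fewer cells expressing a gene and less of its RNA per cell cannot be told apart.

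The levels of the 8 genes spanned a wide range. KHSRP was the most abundant, with a mean of 104 RPKM over the 12 libraries (lowest 86.3, highest 120 RPKM). HNRNPD (mean 40.9 RPKM), ELAVL1 (35.3), TIAL1 (23.1), ZFP36L2 (16.8), TIA1 (10.1), ZFP36L1 (7.91) and ZFP36 (3.79 RPKM) followed in that order. Neighbours in this order held their places in all 12 libraries without overlapping ranges, except HNRNPD over ELAVL1, TIAL1 over ZFP36L2 and TIA1 over ZFP36L1. Each of those 3 pairs held its order in 11 of 12 libraries, and the ranges overlapped. ZFP36 was the scarcest of the 8 and varied most, with a highest level 3.18 times its lowest. For the other 7 that ratio ran from 1.36 in TIAL1 to 1.81 in ZFP36L2.

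**Figure D1:**
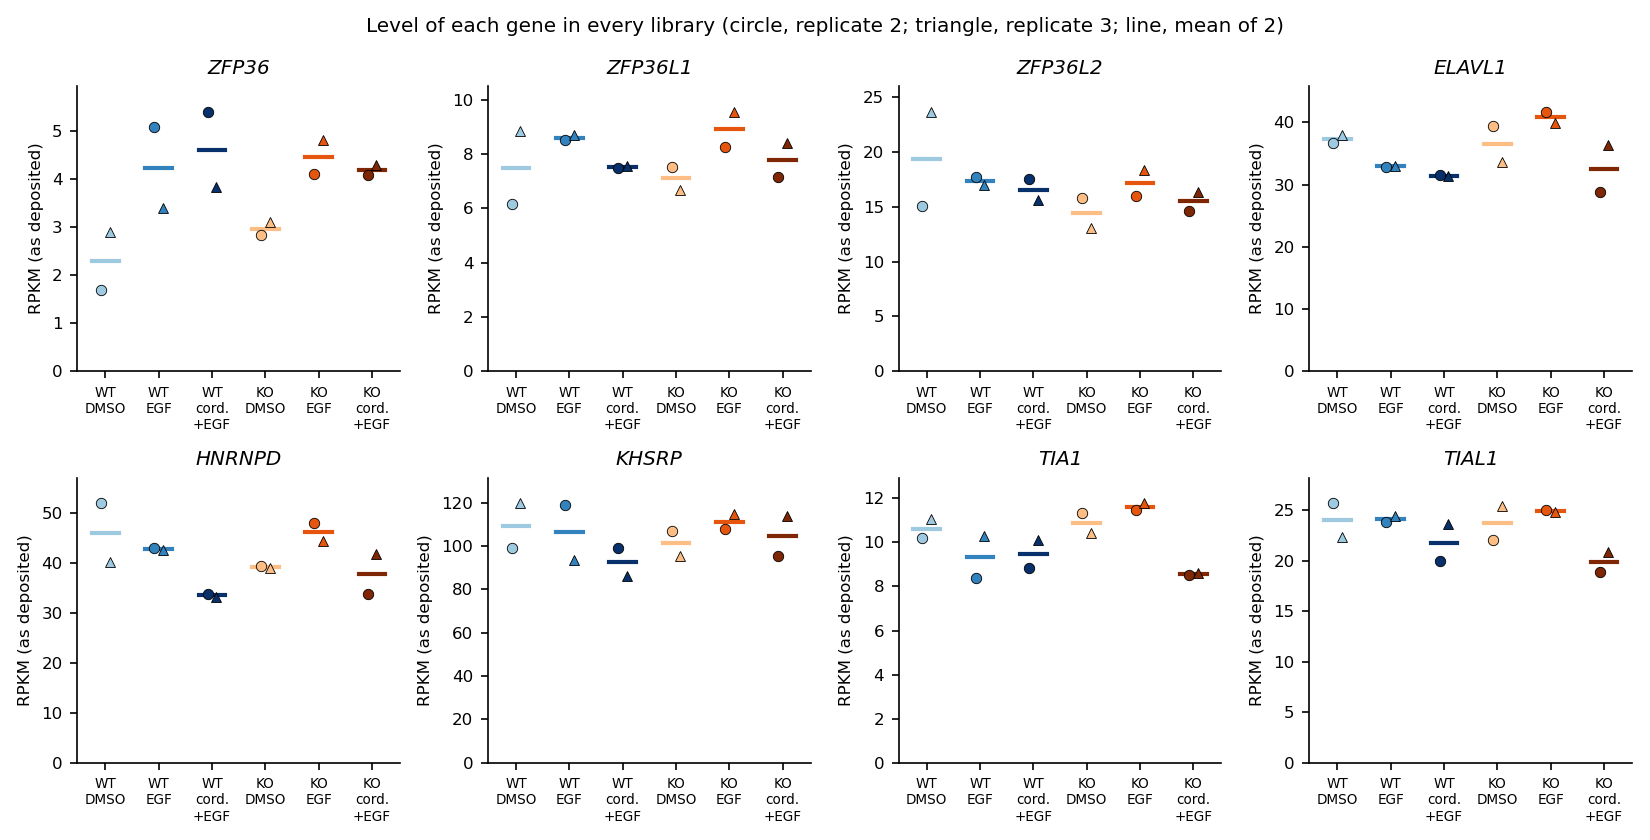
Level of each gene in RPKM as deposited (vertical axis, starting at 0) in the 6 groups (horizontal axis), with circles for replicate 2, triangles for replicate 3 and a line for the mean of the 2. ZFP36 ran from 1.69 to 5.39 RPKM with its lowest values in the DMSO groups, whereas KHSRP stayed between 86.3 and 120 RPKM.

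ZFP36 (ENSG00000128016, chromosome 19, 39406847 to 39409412, plus strand, GRCh38), the founding family member, encodes tristetraprolin. In WT cells it was at 1.69 and 2.89 RPKM in DMSO (replicates 2 and 3), at 5.07 and 3.38 RPKM in DMSO+EGF, and at 5.39 and 3.82 RPKM in cordycepin+EGF. In AMPK KO cells it was at 2.83 and 3.10 RPKM in DMSO, 4.10 and 4.80 RPKM in DMSO+EGF, and 4.08 and 4.28 RPKM in cordycepin+EGF. In both lines every library with EGF lay above both DMSO libraries of that line, with or without cordycepin. The low WT DMSO values rested on 57 and 23 reads, which allow 1.28 to 2.19 and 1.83 to 4.34 RPKM (exact Poisson 95% intervals, covering counting error only). The interval of the shallow library thus reached into the range of the EGF libraries.

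ZFP36L1 (ENSG00000185650, chromosome 14, 68787660 to 68796253, minus strand) is a family member with the same zinc finger pair. Its WT levels were 6.15 and 8.86 RPKM in DMSO, 8.52 and 8.69 RPKM in DMSO+EGF, and 7.49 and 7.55 RPKM in cordycepin+EGF. The AMPK KO levels were 7.54 and 6.67 RPKM in DMSO, 8.27 and 9.56 RPKM in DMSO+EGF, and 7.16 and 8.39 RPKM in cordycepin+EGF. The WT DMSO libraries lay on either side of all other WT values. Between the EGF groups, the WT libraries with cordycepin were both below those without it, and the AMPK KO libraries overlapped. An unnamed long noncoding gene overlaps ZFP36L1 on the same strand, so reads there may be shared.

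ZFP36L2 (ENSG00000152518, chromosome 2, 43222402 to 43226606, minus strand), the third family member, was the most abundant of the family in every library. Levels in WT cells were 15.1 and 23.7 RPKM in DMSO, 17.7 and 17.0 RPKM in DMSO+EGF, and 17.5 and 15.6 RPKM in cordycepin+EGF. Levels in AMPK KO cells were 15.8 and 13.1 RPKM in DMSO, 16.0 and 18.4 RPKM in DMSO+EGF, and 14.6 and 16.4 RPKM in cordycepin+EGF. Its highest value came from the shallow library, WT DMSO replicate 3, which stood apart from its replicate and from all other libraries.

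The share of the family taken by ZFP36 followed its level. Of the summed RPKM of the 3 family genes, ZFP36 made up 7.38 and 8.16% in WT DMSO. It made up 16.2 and 11.6% in WT DMSO+EGF, and 17.7 and 14.1% in WT cordycepin+EGF. The AMPK KO shares were 10.8 and 13.6% in DMSO, 14.4 and 14.7% in DMSO+EGF, and 15.8 and 14.7% in cordycepin+EGF. The 2 WT DMSO libraries had the lowest shares of all 12, and in each line every EGF library had a higher share than the DMSO libraries of that line. ZFP36L2 made up 56.2 to 66.8% and ZFP36L1 24.6 to 29.9%.

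**Figure D2:**
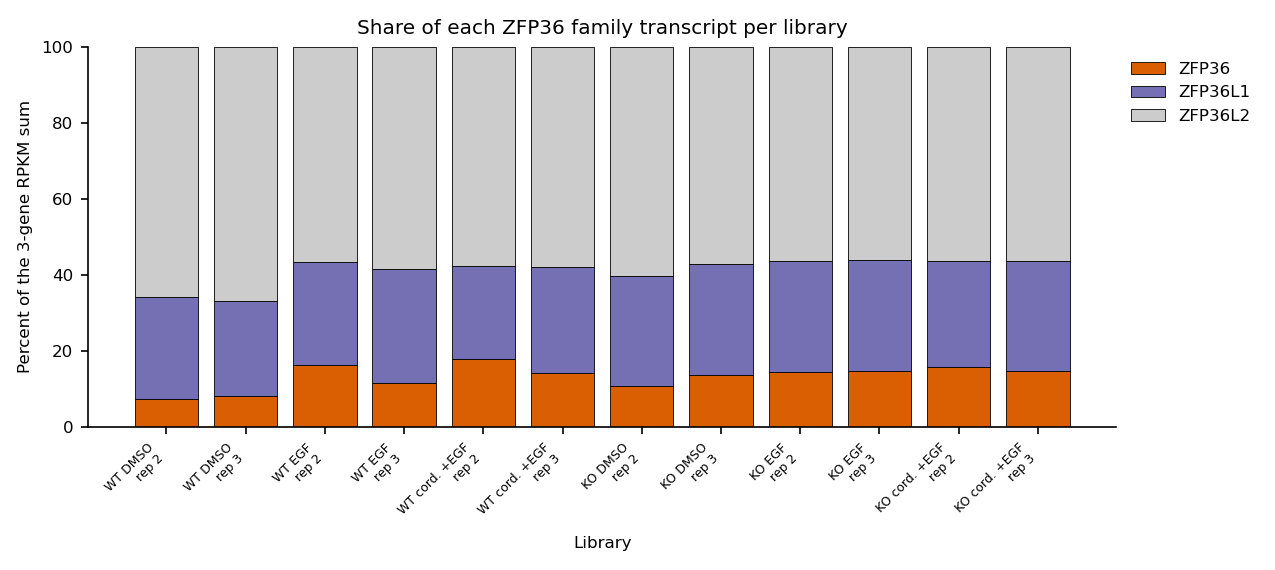
Share of ZFP36, ZFP36L1 and ZFP36L2 (stacked bars, percent of the summed RPKM of the 3 genes, vertical axis) in each of the 12 libraries (horizontal axis). The ZFP36 share was lowest in the 2 WT DMSO libraries (7.38 and 8.16%) and reached 17.7% in WT cordycepin+EGF replicate 2.

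KHSRP (ENSG00000088247, chromosome 19, 6413102 to 6424811, minus strand) encodes a K homology domain protein that recruits decay enzymes and also acts in microRNA maturation. WT cells had 99.2 and 120 RPKM in DMSO, 119 and 93.6 RPKM in DMSO+EGF, and 99.2 and 86.3 RPKM in cordycepin+EGF. AMPK KO cells had 107 and 95.4 RPKM in DMSO, 108 and 115 RPKM in DMSO+EGF, and 95.2 and 114 RPKM in cordycepin+EGF. The replicates of a group differed here by as much as the groups did. The DMSO+EGF and cordycepin+EGF libraries overlapped in both lines, and EGF separated from DMSO only in AMPK KO, by a narrow gap.

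HNRNPD (ENSG00000138668, chromosome 4, 82352498 to 82374503, minus strand) encodes AUF1, whose isoforms bind AU-rich elements and mostly promote decay. WT libraries gave 51.8 and 40.1 RPKM in DMSO, 43.0 and 42.6 RPKM in DMSO+EGF, and 33.8 and 33.1 RPKM in cordycepin+EGF. AMPK KO libraries gave 39.3 and 38.9 RPKM in DMSO, 47.9 and 44.4 RPKM in DMSO+EGF, and 33.7 and 41.7 RPKM in cordycepin+EGF. In both lines the cordycepin+EGF libraries lay below the DMSO+EGF libraries without overlap. HNRNPD has pseudogenes and a divergent transcript on the opposite strand that overlaps it, so its reads may be split.

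ELAVL1 (ENSG00000066044, chromosome 19, 7958573 to 8005659, minus strand) encodes HuR, which binds the same class of elements and stabilises the mRNAs. Among WT libraries it stood at 36.8 and 38.0 RPKM in DMSO, 32.8 and 33.1 RPKM in DMSO+EGF, and 31.5 and 31.4 RPKM in cordycepin+EGF. Among AMPK KO libraries it stood at 39.4 and 33.7 RPKM in DMSO, 41.7 and 39.9 RPKM in DMSO+EGF, and 28.8 and 36.3 RPKM in cordycepin+EGF. With EGF alone both AMPK KO libraries lay above every WT library, while the AMPK KO libraries with cordycepin were far apart.

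TIA1 (ENSG00000116001, chromosome 2, 70209444 to 70248660, minus strand) encodes a translational silencer that gathers in stress granules. The WT libraries held 10.2 and 11.1 RPKM in DMSO, 8.37 and 10.3 RPKM in DMSO+EGF, and 8.84 and 10.1 RPKM in cordycepin+EGF. The AMPK KO libraries held 11.4 and 10.4 RPKM in DMSO, 11.5 and 11.8 RPKM in DMSO+EGF, and 8.54 and 8.59 RPKM in cordycepin+EGF. The 2 AMPK KO libraries with cordycepin were close together and below all other AMPK KO libraries, and the 2 with EGF alone were the highest of all 12. C2orf42 overlaps TIA1 on the same strand, so reads in the shared stretch cannot be assigned to either.

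TIAL1 (ENSG00000151923, chromosome 10, 119571802 to 119597029, minus strand) encodes the close relative TIAR. WT values were 25.7 and 22.4 RPKM in DMSO, 23.9 and 24.4 RPKM in DMSO+EGF, and 20.0 and 23.6 RPKM in cordycepin+EGF. AMPK KO values were 22.1 and 25.5 RPKM in DMSO, 25.0 and 24.8 RPKM in DMSO+EGF, and 18.9 and 20.9 RPKM in cordycepin+EGF. In both lines the cordycepin+EGF libraries lay below the DMSO+EGF libraries.

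The groups were compared with limma on log2(scaled RPKM + 0.5), 2-sided, with p-values adjusted over all 22067 genes. Differences below are on that scale, which understates changes of low genes such as ZFP36. The first question was how EGF changed these mRNAs. In WT cells 0 of the 8 genes passed an adjusted p under 0.05, where 0.0227% of all genes did, and voom on the recovered reads also called 0. At an unadjusted p under 0.05 there was 1 of 8, ZFP36, against 9.72% of all genes. Voom also gave 1 of 8, beside 1959 of 21850 genes. The estimate for ZFP36 was 0.75 (SE 0.261, 95% interval 0.16 to 1.34, p 0.019, adjusted p 0.489 by limma), or 1.68-fold. It was 1.05 without WT DMSO replicate 3, the shallow library, and 0.44 without WT DMSO replicate 2, and 0.48 without WT DMSO+EGF replicate 2 and 1.01 without WT DMSO+EGF replicate 3, with adjusted p-values from 0.346 to 0.856. ZFP36L1 had an estimate of 0.18 (interval -0.20 to 0.57). The remaining 6 had estimates between -0.21 (TIA1 and ELAVL1) and -0.02 (TIAL1), so that 2 of the 8 were above 0. The median of the 8 was -0.10, against 0.02 over all genes. Without the shallow library 4 of the 8 were above 0.

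In AMPK KO cells 0 of the 8 genes passed the adjusted p after EGF (0.0136% of all genes), 0 passed the unadjusted p (2.42% of all genes), and voom gave 0 for each. The estimates were above 0 for all 8, with a median of 0.21, whereas 11335 of the 22067 genes tested were above 0 with a median of 0.01. ZFP36 had the largest of the 8, 0.52 (SE 0.261, interval -0.07 to 1.11), followed by ZFP36L1 at 0.32 (interval -0.07 to 0.70), ZFP36L2 at 0.26 and HNRNPD at 0.24. Without AMPK KO DMSO replicate 2, TIAL1 was at -0.01 and 7 of 8 were above 0. For the difference between the lines in the EGF effect, limma called 0 of 8 (0% of all genes) and voom 0 of 8. At an unadjusted p limma gave 0 of 8 (8.69% of all genes). Voom gave 2 of 8 (ELAVL1 and HNRNPD), beside 2034 of 21850 genes. The difference for ZFP36 was -0.23 (SE 0.369, interval -1.06 to 0.61), an interval that holds a smaller, an equal and a larger response in the knockout.

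The second question was how cordycepin altered the EGF-treated state. In WT cells 0 of the 8 genes passed the adjusted p (0.00453% of all genes) by limma or voom. None passed the unadjusted p by limma, a count of 0 against 16.0% of all genes. By voom 1 did, HNRNPD, beside 5356 of 21850 genes. HNRNPD had the largest estimate, -0.31 (SE 0.143, interval -0.63 to 0.02, adjusted p 0.326 by limma). ZFP36 was at 0.16 (interval -0.43 to 0.75), so its level with EGF did not differ between cordycepin and DMSO beyond the spread of the replicates, and the interval leaves room for a change of either sign. The median of the 8 was -0.07, against 0.03 over all genes.

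In AMPK KO cells cordycepin gave 0 of 8 at the adjusted p (0.471% of all genes) by limma and by voom. At the unadjusted p it gave 2 of 8 by limma, TIA1 and TIAL1, against 21.8% of all genes. By voom it gave 1 of 8 (TIA1), beside 5398 of 21850 genes. The share among the 8 by limma was therefore near the background. TIA1 had an estimate of -0.37 (SE 0.124, interval -0.65 to -0.09, p 0.0146, adjusted p 0.139 by limma), or 0.772 of its level. TIAL1 had -0.28 (SE 0.119, interval -0.55 to -0.01, adjusted p 0.222 by limma). ELAVL1 was at -0.28, HNRNPD at -0.25, ZFP36L1 at -0.14, ZFP36L2 at -0.10, KHSRP at -0.05 and ZFP36 at -0.04. All 8 were thus below 0, with a median of -0.20, while the median of all genes was 0.06 and that of the 12822 protein-coding genes tested was -0.03. With voom or without AMPK KO DMSO+EGF replicate 3, 2 of the 8 were above 0, and without AMPK KO cordycepin+EGF replicate 2, 1 was.

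The cordycepin effect differed between the lines for 0 of 8 genes at the adjusted p (0% of all genes) by limma and by voom. At the unadjusted p it differed for 1 of 8, TIA1, by either tool. That compares with 21.4% of all genes by limma and 5830 of 21850 genes by voom. For TIA1 the effect in AMPK KO cells minus that in WT cells was -0.44 (SE 0.175, interval -0.84 to -0.05, adjusted p 0.197 by limma). It was -0.31 without WT DMSO+EGF replicate 2.

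**Figure D3:**
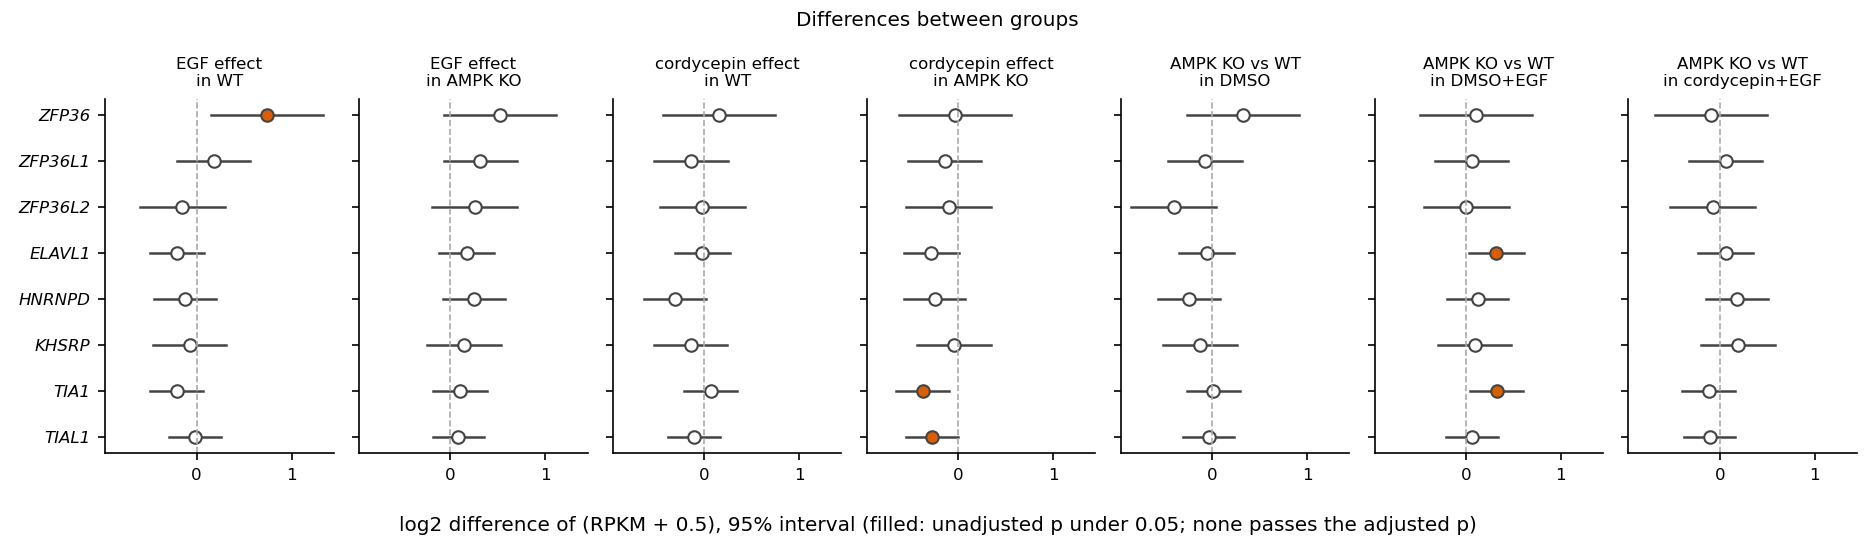
Log2 difference of (scaled RPKM + 0.5) for each gene (horizontal axis, points) with its 95% interval (lines) in 7 comparisons, with filled points where the unadjusted limma p was under 0.05. ZFP36 was highest after EGF in both lines (0.75 in WT and 0.52 in AMPK KO), all 8 points lay below 0 for cordycepin in AMPK KO cells, and no gene passed the adjusted p.

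The third question was whether the lines differed under the same treatment. In DMSO 0 of the 8 genes passed the adjusted p (0.440% of all genes) by limma or voom. At the unadjusted p 0 of 8 passed by limma (21.3% of all genes) and 1 by voom, HNRNPD, beside 5977 of 21850 genes. ZFP36L2 had the estimate farthest from 0, -0.41 (SE 0.198, interval -0.85 to 0.04), and ZFP36 was at 0.33 (interval -0.27 to 0.92). Both rest on WT DMSO, the group with the shallow library. Without that library, replicate 3, ZFP36L2 was at -0.10 and ZFP36 at 0.64, and without WT DMSO replicate 2 they were at -0.72 and 0.02.

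With EGF 0 of the 8 genes passed the adjusted p (1.74% of all genes) by limma or voom. At the unadjusted p 2 of 8 passed by either tool, against 22.5% of all genes by limma and 5929 of 21850 by voom. They were ELAVL1, at 0.32 (SE 0.127, interval 0.03 to 0.61, adjusted p 0.181 by limma), and TIA1, at 0.33 (SE 0.124, interval 0.05 to 0.61, adjusted p 0.165 by limma), both higher in AMPK KO. With limma's array weights, which down-weight discordant libraries, both passed, with adjusted p-values of 0.0389 and 0.0412. The share of all genes called with those weights is not given here, so these 2 calls cannot be read against their own background. The alternatives called from 130 to 5041 genes in this comparison, against 383 in the main fit. Over the 12 alternatives the adjusted p ranged from 0.0389 to 0.267 for ELAVL1 and from 0.0412 to 0.214 for TIA1, and TIA1 was at 0.20 without WT DMSO+EGF replicate 2. All 8 estimates were above 0, with a median of 0.10 against -0.01 over all genes, and 5 of 8 were above 0 without AMPK KO DMSO+EGF replicate 3 or without WT DMSO+EGF replicate 3. With cordycepin and EGF 0 of 8 passed the adjusted p (0.118% of all genes) by limma or voom, and 0 of 8 passed the unadjusted p by either tool (13.7% of all genes by limma). The estimates ran from -0.12 (TIA1) to 0.19 (KHSRP), with 4 of 8 above 0.

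The 3 comparisons in which all 8 estimates pointed one way share the same 2 libraries, AMPK KO with DMSO+EGF. A high level in those libraries gives a positive difference after EGF, a negative difference after cordycepin and a positive difference between the lines. The summed RPKM of the 8 genes in these libraries was 262 and 268, against 245 and 227 in AMPK KO DMSO, 211 and 250 in AMPK KO cordycepin+EGF, and 258 and 233 in WT DMSO+EGF. They were among the highest of the 12, next to WT DMSO replicate 3 at 267. KHSRP, at 108 and 115 RPKM in AMPK KO DMSO+EGF, weighed most in the sum, and ZFP36, at 4.10 and 4.80 RPKM, least. The sum alone therefore does not show whether the 8 genes shared a high level. By mean RPKM, AMPK KO DMSO+EGF was the highest of the 6 groups for ZFP36L1, ELAVL1, HNRNPD, KHSRP, TIA1 and TIAL1. It was not the highest for ZFP36 or ZFP36L2. Some margins were narrow, as for HNRNPD with 46.11 RPKM against 45.98 RPKM in WT DMSO.

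Genes that act with these proteins were described as lists. Of 23 other RNA-binding proteins, listed as relatives or as binders of AU-rich or U-rich elements, 21 were in the table and 20 were tested. The list is mixed and also holds proteins known for other RNA features. Limma called 0 of the 20 at the adjusted p in every comparison, where it called 0 to 1.74% of all genes. At the unadjusted p it gave 0 to 4 of the 20, where 2.42 to 22.5% of all genes passed. Voom called 0 or 1 of the 20, beside 0 to 2653 of 21850 genes. Named by their largest estimate in a comparison were PCBP1 (0.32 after EGF in WT, interval -0.41 to 1.06), YBX1 (0.31 after EGF in AMPK KO, adjusted p 1) and CELF2 (-0.68 for cordycepin in WT, adjusted p 0.279). PCBP1 was at 0.87 without the shallow library and at -0.22 without WT DMSO replicate 2, and YBX1 at 0.18 without AMPK KO DMSO replicate 3. RC3H2, the roquin paralogue that binds stem loops in short-lived mRNAs, was at -0.49 for cordycepin in AMPK KO cells (SE 0.109, adjusted p 0.069), and ELAVL2, the neuronal relative of ELAVL1, at -0.51 for AMPK KO against WT in DMSO (adjusted p 0.142). For cordycepin in AMPK KO cells 16 of the 20 were below 0, with a median of -0.16, where 9912 of 22067 genes and 6848 of 12822 protein-coding genes were.

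All 25 partners, reported to act with ZFP36 family proteins or KHSRP, were tested. Beside deadenylases, decapping factors and exonucleases the list holds kinases and GIGYF2, EIF4E2, YWHAB, YWHAE and YWHAZ. It is therefore not a list of decay factors alone. Set against WT with EGF, 2 of the 25 were higher in AMPK KO at the adjusted p, beside 205 of 22067 genes. Voom called 5 of the 25 in either direction, beside 2653 of 21850 genes. GIGYF2, a translational repressor bound by tristetraprolin, was at 8.26 and 7.63 RPKM in WT DMSO+EGF and 12.3 and 12.6 RPKM in AMPK KO DMSO+EGF, with no overlap (0.64, SE 0.111, adjusted p 0.0372). DCP1A, a decapping cofactor, was at 13.4 and 13.9 RPKM in WT and 21.6 and 23.7 RPKM in AMPK KO (0.73, SE 0.145, adjusted p 0.0494). Both calls stood near the threshold: GIGYF2 passed in 10 of 12 alternatives and DCP1A in 6 of 12, and each in 2 of 12 fits without 1 library. The EIF4E2 cap-binding protein, which works with GIGYF2, was at 0.67 in AMPK KO against WT in DMSO (adjusted p 0.0629). After EGF in WT cells AKT1, a kinase that phosphorylates KHSRP and ZFP36L1, was at 0.54 (adjusted p 0.451). The exonuclease XRN1 was at 0.34 after EGF in AMPK KO cells and -0.68 for cordycepin in WT (adjusted p 0.284), and the deadenylase CNOT8 at -0.43 for cordycepin in AMPK KO (adjusted p 0.13). For cordycepin in AMPK KO cells 23 of the 25 partners were below 0 with a median of -0.25, beside 6848 of 12822 protein-coding genes with a median of -0.03. None passed the adjusted p there by limma or voom (0 of 25), while 9 of 25 by limma, beside 21.8% of all genes, and 5 of 25 by voom, beside 5398 of 21850 genes, passed the unadjusted p.

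Of 38 transcripts reported to be controlled through AU-rich elements, 33 were in the table and 27 were tested. The nonamer was present in 14 of the 27 (51.9%). At least 5 pentamers were found in 15 of the 27, and ODC1 had 0 pentamers, so this list is mixed too. The list was chosen with earlier results of these data known. After EGF in WT cells limma called 2 of the 27 higher, beside 5 of 22067 genes. In the knockout line it called 1 of the 27 higher, beside 3 of 22067 genes. Voom called 4 and 2 of the 27 in the 2 lines, beside 9 and 4 of 21850 genes. FOS, whose site is printed above, was at 0.903 and 0.624 RPKM in WT DMSO and 12.2 and 11.8 RPKM in WT DMSO+EGF, a log2 difference of 3.29 (SE 0.209, adjusted p 0.000593). Its AMPK KO levels were 0.755 and 0.552 RPKM in DMSO and 6.22 and 5.75 RPKM in DMSO+EGF (2.50, adjusted p 0.00624). For ZFP36 the differences in the same libraries were 0.75 and 0.52. FOSB, its paralogue, was at 0.55 and 0.895 RPKM in WT DMSO and 3.97 and 4.57 RPKM in WT DMSO+EGF (1.95, adjusted p 0.0282). The FOSB call held in 9 of 12 alternatives, with adjusted p-values up to 0.87, and in 3 of 12 fits without 1 library, against 11 and 12 of 12 for FOS in WT and 10 and 9 of 12 for FOS in AMPK KO. With EGF in WT cells 22 of the 27 were above 0, with a median of 0.23, beside 11539 of 22067 genes. In AMPK KO cells 17 of 27 were, with a median of 0.05, beside 11335 of 22067 genes.

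Between the lines 3 of the 27 transcripts changed in DMSO, against 0.440% of all genes, and voom called 6 of 27 beside 1828 of 21850 genes. MYC, the growth-promoting transcription factor, fell by 1.74 on the log2 scale, from 28.1 and 20.5 RPKM in WT to 6.89 and 6.99 RPKM in AMPK KO (SE 0.284, adjusted p 0.0434). With EGF it fell by 2.04 (adjusted p 0.0199). The cell cycle inhibitor CDKN1A rose from 11.04 and 10.8 RPKM to 20.5 and 22.8 RPKM (0.94, adjusted p 0.0228), and the kinase PIM1 from 9.11 and 10.99 RPKM to 17.4 and 17.2 RPKM (0.74, adjusted p 0.0434). For the DMSO calls of MYC, CDKN1A and PIM1 the adjusted p was 0.416 when the fit held the compared groups alone. They passed in 7, 9 and 7 of 12 alternatives and in 3, 6 and 1 of 12 fits without 1 library, so each stood near the threshold, while the MYC call with EGF passed in 12 and 8 of 12. ODC1, the polyamine enzyme, had the largest estimate of the list for cordycepin in AMPK KO cells, -0.51 (adjusted p 0.266). For cordycepin in WT cells it was MYC, at -1.93 (adjusted p 0.177). With cordycepin limma called 0 of the 27 in either line, while 8 of 27 in WT, beside 16.0% of all genes, and 6 of 27 in AMPK KO, beside 21.8%, passed the unadjusted p. Voom called 4 of 27 in WT, beside 781 of 21850 genes, and 0 of 27 in AMPK KO, beside 1080 of 21850.

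**Figure D4:**
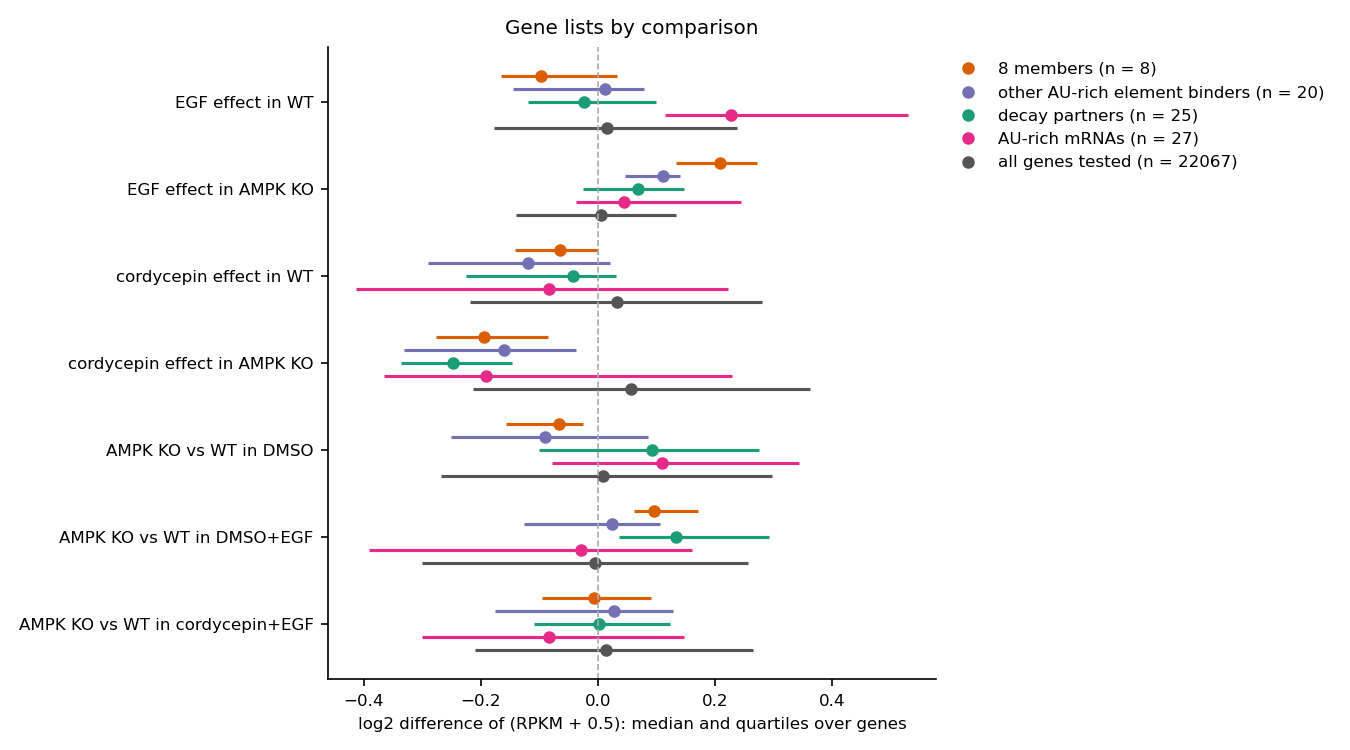
Median (points) and quartiles (lines) of the log2 difference over the genes of each list (horizontal axis) in 7 comparisons (vertical axis). The lists are the 8 members, 20 other RNA-binding proteins, 25 partners, 27 transcripts reported to be controlled through AU-rich elements and all 22067 genes tested. The legend calls the middle lists other AU-rich element binders, decay partners and AU-rich mRNAs, but each of them is mixed. After EGF in WT cells the 27 transcripts had a median of 0.23 and the members -0.10. For cordycepin in AMPK KO cells the medians of all 4 lists lay between -0.25 and -0.16. That of all genes was 0.06, and that of the 12822 protein-coding genes, not drawn, was -0.03.

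The genes whose log2 levels ran most closely with each family member over the 12 libraries were found among 18783 genes with a mean of at least 1 RPKM. For ZFP36 they were ENSG00000227704 (r 0.877), AGPAT1 (0.872), SCAMP2 (0.856), ATF6-DT (0.851) and IER2 (0.849), the last an immediate early gene. For ZFP36L1 they were GATA3 (0.867), POLR2A (0.821), IMPA2 (0.811), SNORA80D (0.808) and ENSG00000277968 (0.807). For ZFP36L2 they were ENSG00000272689 (0.908), ENSG00000237347 (0.906) and the ribosomal protein pseudogenes RPL17P40 (0.899), RPL23AP17 (0.895) and RPL17P28 (0.892). The libraries share groups and differ in depth, so these values are a description only. Within the 8 genes, ZFP36 ran with ZFP36L1 (r 0.594) and ZFP36L1 with ZFP36L2 (0.701), and ELAVL1 ran with TIA1 (0.704) and HNRNPD (0.669), whereas ZFP36 and TIAL1 were at -0.435 over the same 12 libraries.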

How the data were processed

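Total RNA was sequenced by the authors as stranded, ribosomal RNA-depleted paired reads, mapped to GRCh38.p13, counted per gene and deposited as RPKM values for 12 libraries. Whether counting used strand was not given in the sources used here. Replicate 1, which the authors set aside as outlying, was not used here, nor were 2 table rows that hold no gene. Gene IDs were matched to GENCODE 44, which named 26029 of 26058 genes. Whole reads (within 0.05 of a read in all libraries) were recovered for 25082 genes (96.25%) at the annotated length and 25787 (98.96%) after a length search. ZFP36L1 and HNRNPD were whole at 5160 and 6981 bases, against annotated exon lengths of 6466 and 7013, so their levels follow the shorter lengths.

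RPKM values were scaled to each library's upper quartile and tested as log2(scaled RPKM + 0.5) where the mean RPKM reached 0.5, with limma 3.58.1 in R 4.3.3 (eBayes with trend, 12 libraries in 1 fit, 6 residual and 8.96 total degrees of freedom, Benjamini-Hochberg adjustment per comparison, 2-sided). The fit was also run on simulated counts with changes in WT DMSO+EGF alone and little spread between replicates, and that outcome is not given here. Levels are RPKM as deposited. Voom on the recovered reads tested 21850 genes and called 9 genes for EGF in WT, 4 for EGF in AMPK KO, 781 for cordycepin in WT and 1080 for cordycepin in AMPK KO.

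Named were the 8 members, PRKAA1 and PRKAA2, every list gene with an adjusted p under 0.05, the list gene with the largest difference in each treatment comparison and in AMPK KO against WT in DMSO, and the 5 genes of closest pattern. The members and lists were chosen with earlier results of these data known. Alternatives were other pseudocounts, filters and scalings, fewer groups, replicate blocks, no trend, array weights, voom and leaving out each library. The replicate number was not used as a block in the main fit. Differences between replicates 2 and 3 correlated above 0.1 in each pair of WT groups (0.136 to 0.314) but not among AMPK KO groups (-0.122 to 0.031), and from -0.081 to 0.322 across the lines. 3′ untranslated regions came from GENCODE 44 canonical transcripts.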

Additional observations from a re-analysis of the deposited data

How the results depend on the processing

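The level of ZFP36 in the shallowest library rested on 23 reads, which limits any comparison of that gene with WT DMSO. The number of the 8 genes passing the adjusted p was 0 in each of 9 comparisons and stayed 0 in 215 of 216 recomputed counts. The exception was AMPK KO against WT with EGF under array weights, which called 2 (ELAVL1 and TIA1). The count of all genes called under those weights is not given here. Leaving out 1 library called 0 in each comparison. With a replicate block, the numbers shared by the libraries, 0 members were called in each comparison, and 92 genes in all, against 104, for cordycepin in AMPK KO. A block within each cell line also called 0 members. Of the 72 differences (8 genes in 9 comparisons), 64 kept their sign in all 12 alternatives and 38 without any 1 library. Scaling moved no member's mean level by more than 2.68%. The deposited values left little room for more, as their upper quartiles already lay between 7.415 and 7.861 RPKM.

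Counts over all genes changed with the fit. They cannot be compared with the count of 0 among the members. In the main fit at most 1.74% of all genes passed in any comparison, so a list as short as the members was likely to hold none. The steady 0 therefore does not show that the members depended less on the fit than other genes. Over the alternatives the number called ranged from 1 to 9 for EGF in WT (5 in the main setting), 1 to 4 for EGF in AMPK KO (3), 0 to 781 for cordycepin in WT (1), 0 to 1193 for cordycepin in AMPK KO (104) and 0 to 2270 for the difference in the cordycepin effect (0). For AMPK KO against WT it ranged from 1 to 1828 in DMSO (97), 130 to 5041 with EGF (383) and 2 to 449 with cordycepin and EGF (26). Without 1 library the ranges were 3 to 704, 1 to 4, 0 to 7, 0 to 1379, 0 to 1997, 5 to 3053, 6 to 2366 and 4 to 76 in the same order, and for the difference in the EGF effect 0 to 13, against 0 under every alternative. The cause was not tested.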
